A study of Mus musculus with 21 samples.

Results

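The collagen gene family was followed across 21 mouse samples of cultured pluripotent cells and early epiblasts by RNA sequencing. Members were all rows of the count table whose symbol consists of Col, a type number, a, and a chain number. They came to 44 chains of 33861 genes, and all 44 are annotated as protein coding. By collagen type, 11 chains were fibrillar (types I, II, III, V, XI, XXIV and XXVII), 9 belonged to types of the basement membrane zone (IV, VII, XV and XVIII) and 24 to other types.

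FS cells, named formative stem cells in the labels, grew in the medium A3XR. Of their 2 lines, line 1 was sampled at passage numbers 10, 11 and 18, and line 2 at 12, 13 and 16. EpiSCs (epiblast stem cells in the labels' term) carried E14 in their names and grew in either of the media AF and AFX, which name their groups, with samples of both at passage numbers 14, 15 and 16. Each cultured sample held 1000 cells. Epiblasts were collected singly at 3 stages, E5.0 (embryos 1, 2 and 4), E5.5 and E6.0 (embryos 1, 2 and 3 of each), and the E6.0 samples carry a stage of 6.5 in another label. FS and AF or AFX differed in line and medium together, passages of 1 line are not separate derivations, and for cultured cells the p-values below therefore measure the spread between passages and, where FS is 1 group, also the difference between its 2 lines.

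Collagen chains wind around each other into helical molecules that are secreted and assembled outside the cell. Fibrillar collagens pack into the fibrils of connective tissue. Type IV chains join into the network of the basement membrane on which the early epiblast rests, and type XVIII is a proteoglycan of the same layer. Chains are hydroxylated, glycosylated and folded before secretion, trimmed by proteases afterwards and cross-linked by enzymes such as lysyl oxidases.

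Total counts ran from 5827093 to 15916800 per sample. Levels are given as CPM, the counts scaled to a common library size with TMM factors, and 3 counts, the floor used for undetected chains, correspond to 0.171 to 0.561 CPM. Of the 8 listed epiblast genes, including Pou5f1 and Sox2, all had over 3 counts in every sample, with summed levels of 1398 to 3155 CPM in cultured cells and 4027 to 7594 CPM in epiblasts. Loci of ribosomal RNA type and 3 further loci, Gm23935, Gm26917 and Gm42418, together took 20 to 31.8% of the counts.

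Collagens made up a small part of the RNA in every group. Their share of all counts was 0.0599% ± 0.0148 (SD, n = 6) in FS, 0.116% ± 0.0106 (n = 3) in AF, 0.0716% ± 0.0136 (n = 3) in AFX, 0.0895% ± 0.00771 (n = 3) at E5.0, 0.0700% ± 0.00193 (n = 3) at E5.5 and 0.0621% ± 0.00327 (n = 3) at E6.0. The AF samples, at 0.106 to 0.127%, lay above all other samples in this share, while in summed CPM AF passage 14, at 1014, was just below E5.0 embryo 2, at 1022. More than 3 counts were found for 36 to 40 chains in AF, 28 to 33 in AFX, 29 to 31 in FS and 21 to 30 in single epiblasts. Only Col4a3 and Col10a1 had no more than 3 counts in any of the 21 samples.

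**Figure D1:**
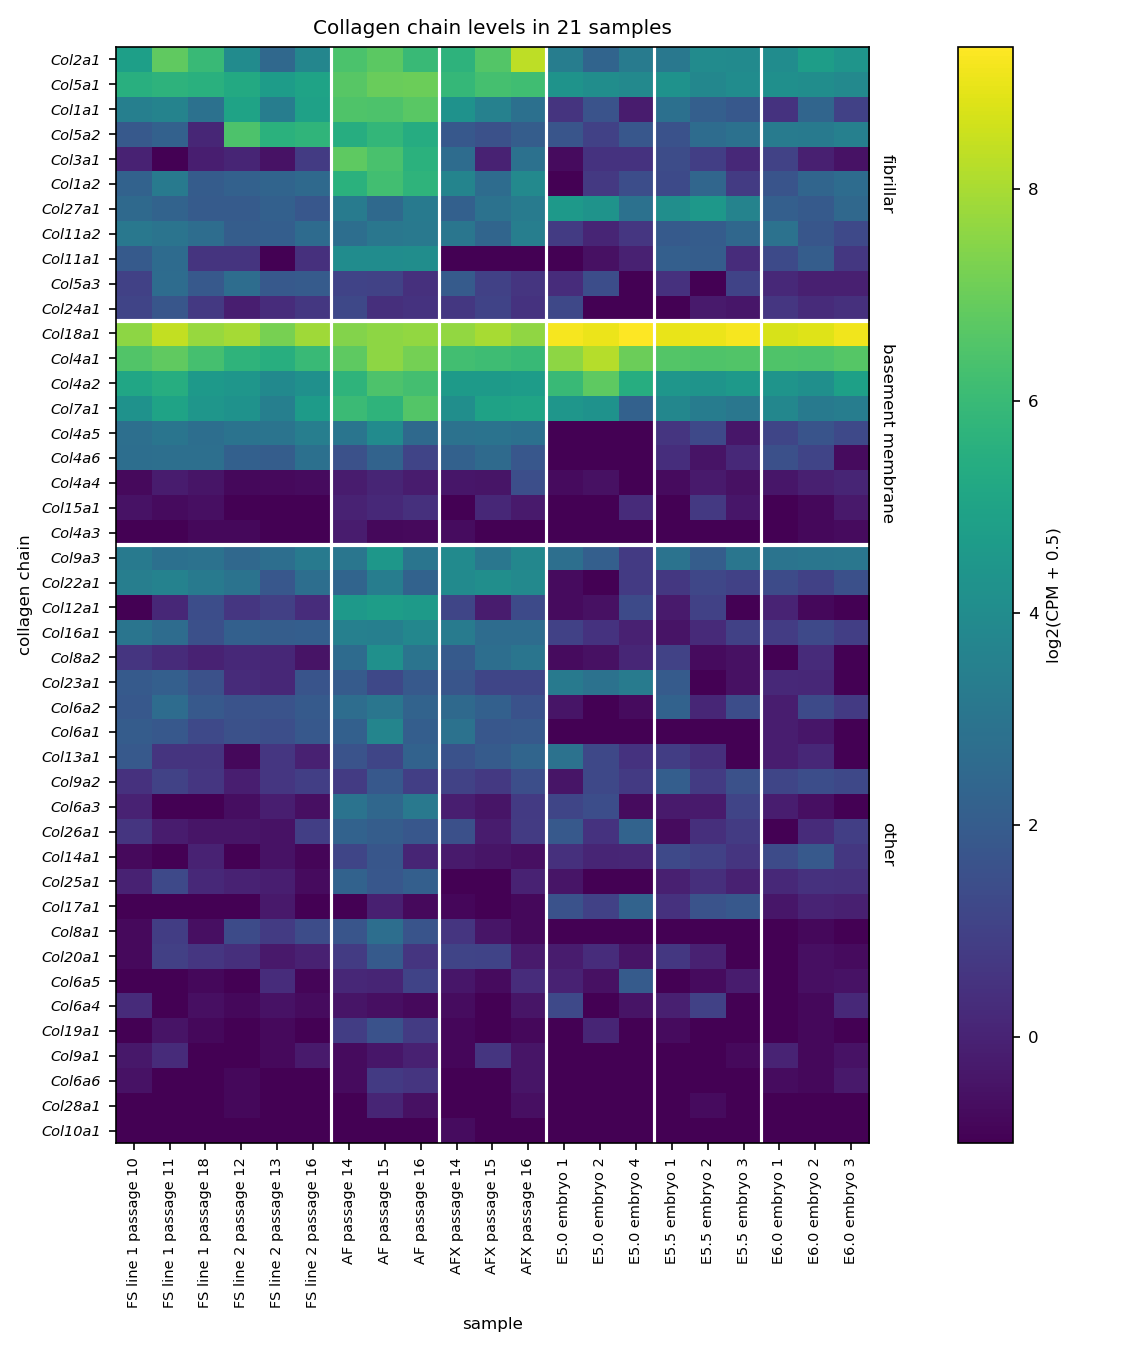
Level of the 44 collagen chains (rows, grouped by class and ordered by mean level) in the 21 samples (columns, white lines between groups), as log2 of CPM plus 0.5. Col18a1 is bright in every column, and the fibrillar rows Col1a1, Col3a1, Col1a2 and Col11a1 are brightest in the 3 AF columns.

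The make-up of the collagen RNA differed between epiblasts and cultured cells. Basement membrane chains held 91.7% ± 1.63 (SD, n = 3) of the collagen counts at E5.0, 88.0% ± 1.06 at E5.5 and 87.4% ± 1.82 at E6.0, against 65.6% ± 2.95 (n = 6) in FS, 43.9% ± 3.61 (n = 3) in AF and 52.5% ± 11.3 (n = 3) in AFX. The single chain Col18a1 held 61.6, 71.2 and 68.8% on average at the 3 stages, and 41.3% in FS, 16.9% in AF and 32.8% in AFX. Type IV chains held 28.6, 15.3 and 17.0% at the stages and 20.5, 20.6 and 15.9% in FS, AF and AFX, and so did not set epiblasts apart. Fibrillar chains held 5.14% ± 1.08, 8.87% ± 1.04 and 9.55% ± 1.35 of the collagen counts at the 3 stages, 27.7% ± 3.90 in FS, 46.2% ± 3.63 in AF and 38.1% ± 12.96 in AFX. No epiblast reached the fibrillar share of any cultured sample, since the highest epiblast was at 10.7% and the lowest FS sample at 22%. The wide spread in AFX came with passage 16, where fibrillar chains held 53.0% of the collagen counts and the other passages were at 29.4 and 31.9%. It lay in the single chain Col2a1, at 319 of 444 fibrillar CPM in passage 16, against 51.1 of 167 and 95.2 of 208 in passages 14 and 15.

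**Figure D2:**
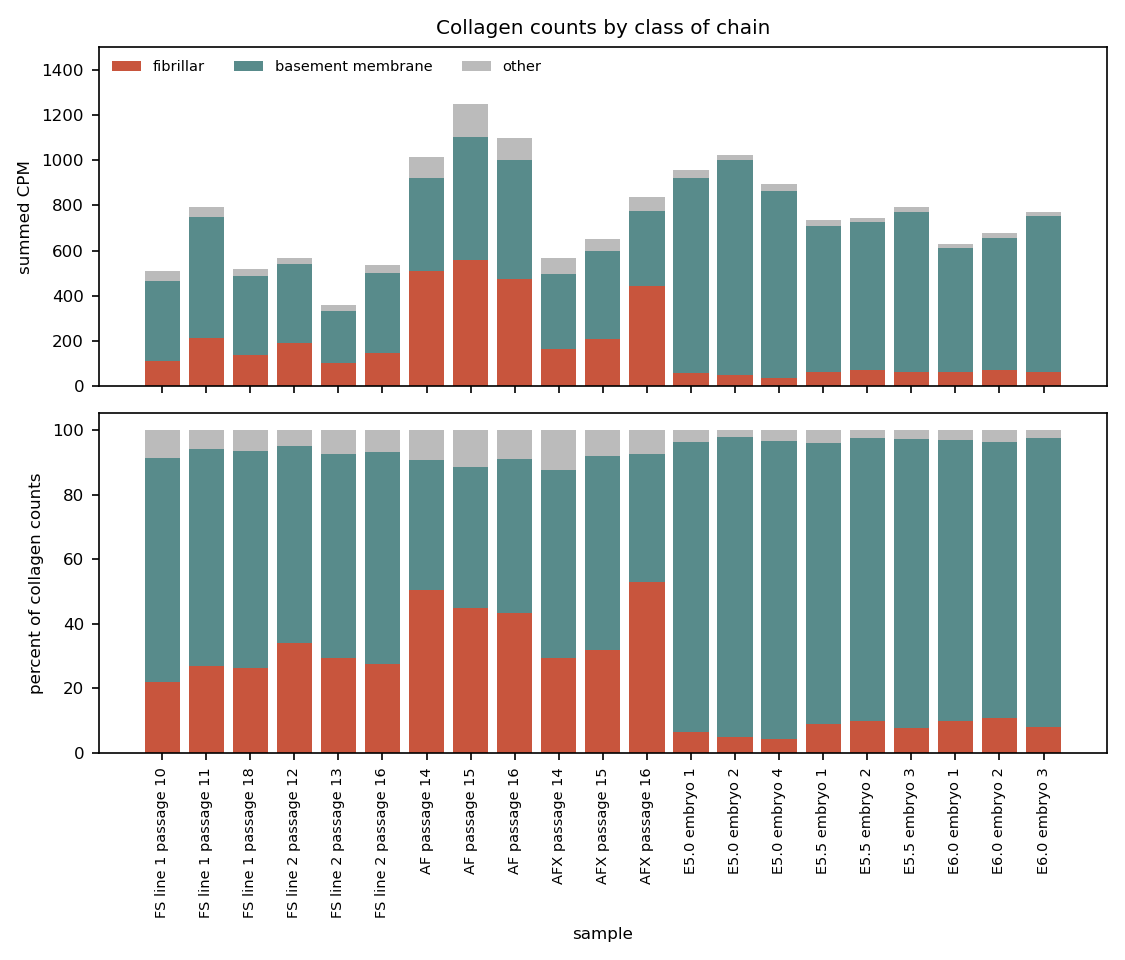
Summed CPM of the collagen classes (upper panel) and their percent of all collagen counts (lower panel) in each of the 21 samples, stacked by class. Fibrillar chains are the lower block, at most 10.7% of the collagen counts in an epiblast and at least 22% in a cultured sample.

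Per kilobase of exon, Col18a1, the core protein of the basement membrane proteoglycan type XVIII, had the highest level of all chains in each of the 6 groups, from 26.8 CPM per kilobase in AF to 83.4 at E5.0. Col4a1 came next in every group but AFX. Its level was 9.88 CPM per kilobase in FS, 19.96 in AF, 27.6 at E5.0, 12.5 at E5.5 and 12.3 at E6.0. In AFX the place after Col18a1 was held by Col2a1 at 16.8 CPM per kilobase, with Col4a1 at 9.18. This mean and place of Col2a1 rest on passage 16, at 319 CPM against 51.1 and 95.2 CPM in passages 14 and 15.

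FS cells carried less RNA of 6 fibrillar chains than AF cells, with the widest gap in type III, and less of the type IV chains Col4a1 and Col4a2 and of the type VII chain, while Col18a1 was not called. In edgeR's quasi-likelihood test with Benjamini-Hochberg adjustment over all 16052 genes tested, taking adjusted p values under 0.05 as calls, 33 of the 44 chains could be tested in cultured cells. Of these, 17 were lower and 1 was higher in FS than in AF, whereas 19.5% of all genes tested were called, 10.6% lower and 8.86% higher. The median log2 fold change was -1.37 over the collagens and 0.02 over all genes. The lower chains and the median include Col6a3, Col19a1 and Col25a1, which passed the filter on low counts only through their AF samples. For these chains a call of higher in FS was not possible. By class, 6 of 11 fibrillar chains were lower and 1 higher, 3 of 6 basement membrane chains were lower, and 8 of 16 others were lower.

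Among fibrillar chains, Col3a1 (ENSMUSG00000026043, chr1:45311538-45349706, GRCm38, plus strand), the only chain of type III collagen, which accompanies type I in extensible tissues, showed the widest gap. Its levels were 0.50, 0, 0.41, 0.56, 0.21 and 1.26 CPM in FS line 1 passages 10, 11 and 18 and line 2 passages 12, 13 and 16, and 108, 81.3 and 47.8 CPM in AF passages 14, 15 and 16. All 6 FS samples were near or under 1 CPM and all AF samples far above them. Col3a1 was lower in FS by a log2 fold change of -7.12 (SE 0.62, edgeR adjusted p = 2.2e-05). The epiblasts were at 0.12 to 2.13 CPM, also far below AF.

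The type I chains Col1a1 (chr11:94936224-94953042, plus strand) and Col1a2 (chr6:4504814-4541544, plus strand), which assemble into the main fibril collagen of skin and bone, were lower as well. Col1a1 stood at 10.6, 11.97 and 6.65 CPM in FS line 1, 31.2, 9.79 and 29.4 CPM in FS line 2, and 89.6, 87.4 and 104 CPM in AF. Col1a2 stood at 4.31, 9.10 and 3.57 CPM in FS line 1, 4.09, 4.48 and 5.31 CPM in FS line 2, and 47.6, 73.5 and 52.9 CPM in AF. For both chains every FS sample was below every AF sample, and line 2 passages 12 and 16 were the highest FS samples for Col1a1. The log2 fold changes were -2.48 (SE 0.46, edgeR adjusted p = 0.00311) for Col1a1 and -3.50 (SE 0.28, edgeR adjusted p = 2e-06) for Col1a2.

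Col5a1 (ENSMUSG00000026837, chr2:27886425-28039514, plus strand), a type V chain that helps to start type I fibrils and set their width, was at 45.5, 50.9 and 46.7 CPM in FS line 1, 38.3, 25.8 and 31.8 CPM in FS line 2, and 101, 124 and 130 CPM in AF. FS samples lay below AF samples without overlap, and Col5a1 was lower by -1.57 on the log2 scale (SE 0.18, edgeR adjusted p = 3.5e-05). Col11a1 (ENSMUSG00000027966, chr3:114030540-114220718, plus strand), a chain of the thin fibrils of cartilage, was at 3.31, 5.63, 0.97, 0.96, 0 and 0.86 CPM in the 6 FS samples in the same order and at 15.9, 15.9 and 16.3 CPM in AF. It was lower in FS by -3.09 (SE 0.76, edgeR adjusted p = 0.0179), a call that was lost without AF passage 15 or without AF passage 16 (adjusted p = 0.0525 and 0.0557). Col27a1, a fibrillar collagen of developing cartilage, was at 5.31, 4.43, 3.41, 3.45, 3.96 and 3.03 CPM in FS, 9.27, 5.22 and 9.16 CPM in AF and 4.06, 6.98 and 9.42 CPM in AFX. FS and AF overlapped at AF passage 15. It was lower in FS than in AF by -1.01 (SE 0.29, edgeR adjusted p = 0.0244) and lost its call in 3 of 9 fits that each left out a sample (adjusted p up to 0.103). The only collagen higher in FS was Col5a3, a further type V chain, at 3.87 ± 1.75 against 1.33 ± 0.421 CPM (log2 fold change 1.55, SE 0.50, edgeR adjusted p = 0.042), and 8 of 9 such fits lost that call (adjusted p up to 0.163).

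The stretches just before the start sites of 3 of these chains are shown because the chains share a direction in FS against AF and differ in size of change. They are the 250 bases before the RefSeq start (GRCm38.p6), written 5′ to 3′ on the plus strand, the strand of all 3 genes. Capitals mark matches, on either strand, to TATAA, found in many core promoters, to the box with the letters CCAAT, and to the GC box written GGGCGG, and overlapping matches form 1 run of capitals. The windows are chr1:45311288-45311537 for Col3a1, chr3:114030290-114030539 for Col11a1 and chr2:27886175-27886424 for Col5a1.
Col3a1: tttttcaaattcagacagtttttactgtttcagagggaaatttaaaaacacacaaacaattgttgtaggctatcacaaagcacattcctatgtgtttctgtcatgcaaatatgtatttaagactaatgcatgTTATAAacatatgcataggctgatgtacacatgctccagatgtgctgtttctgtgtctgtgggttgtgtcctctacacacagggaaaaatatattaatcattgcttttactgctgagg
Col11a1: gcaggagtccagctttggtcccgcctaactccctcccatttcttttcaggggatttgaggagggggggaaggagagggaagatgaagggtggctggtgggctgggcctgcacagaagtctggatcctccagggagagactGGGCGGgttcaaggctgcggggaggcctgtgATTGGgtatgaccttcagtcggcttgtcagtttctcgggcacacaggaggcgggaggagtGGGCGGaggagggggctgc
Col5a1: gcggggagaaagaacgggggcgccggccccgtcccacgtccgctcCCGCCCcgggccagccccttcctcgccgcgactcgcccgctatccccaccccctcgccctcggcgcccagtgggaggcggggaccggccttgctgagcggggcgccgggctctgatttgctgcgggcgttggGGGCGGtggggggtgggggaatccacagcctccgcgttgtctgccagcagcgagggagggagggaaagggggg
The Col3a1 window had a GC content of 35.2% and held TATAA on both strands in 1 palindromic run, 118 and 117 bases before the start, with no CCAAT or GGGCGG. The Col11a1 window, at 62.4% GC, held GGGCGG at 110 and 19 bases and CCAAT on the opposite strand at 79 bases before the start. The Col5a1 window, at 76.4% GC, held GGGCGG on the opposite strand at 205 bases and on the gene strand at 73 bases. None of the 3 letter runs was present in all 3 windows. Windows were found for 35 of the 44 chains (38 windows), and among these GGGCGG occurred in 57.9%, CCAAT in 34.2% and TATAA in 18.4%, against 32.7%, 33.8% and 22.8% of all 32851 windows. A match describes letters only.

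The chains Col4a1, Col4a2 and Col7a1 of the basement membrane zone were lower in FS as well, whereas the minor type IV chains Col4a5 and Col4a6 were not called (log2 fold changes -0.31, SE 0.27, and 0.95, SE 0.34, edgeR adjusted p = 0.469 and 0.0638). Col4a1 (ENSMUSG00000031502, chr8:11198423-11312826, minus strand) and Col4a2 (ENSMUSG00000031503, chr8:11312805-11449287, plus strand) start next to each other on opposite strands and make the common type IV molecule. Col4a1 was at 92.8, 112 and 77.1 CPM in FS line 1, 52.4, 44.2 and 63.9 CPM in FS line 2, and 110, 193 and 144 CPM in AF, so that 1 FS sample reached the lowest AF sample. Col4a2 was at 34.1, 42.7 and 23.5 CPM in FS line 1, 20.9, 14.4 and 17.7 CPM in FS line 2, and 53.0, 88.1 and 74.8 CPM in AF, with no overlap. Their log2 fold changes were -1.01 for Col4a1 (SE 0.25, edgeR adjusted p = 0.0127) and -1.497 for Col4a2 (SE 0.27, edgeR adjusted p = 0.00195). Without AF passage 15 the call of Col4a1 was lost (adjusted p = 0.082).

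Col7a1 (chr9:108953586-108984875, plus strand), which forms the anchoring fibrils under epithelia, was at 19.03, 31.7 and 21.2 CPM in FS line 1, 18.7, 10.5 and 24.8 CPM in FS line 2, and 64.9, 52.4 and 93.5 CPM in AF, a gap without overlap (log2 fold change -1.74, SE 0.29, edgeR adjusted p = 0.000992). Col18a1 (ENSMUSG00000001435, chr10:77052178-77166548, minus strand) was at 194, 332 and 215 CPM in FS line 1, 243, 148 and 230 CPM in FS line 2, and 172, 189 and 203 CPM in AF. The groups overlapped throughout, and its log2 fold change of 0.27 (SE 0.19, edgeR adjusted p = 0.351) did not pass the test.

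Outside these classes the largest gaps were in a beaded-filament chain and in collagens that sit on fibril surfaces. Col12a1 (chr9:79598991-79718831, minus strand), which decorates type I fibrils, was at 0, 0.60, 2.19, 1.04, 1.46 and 0.74 CPM in FS and at 22.98, 26.9 and 24.5 CPM in AF (log2 fold change -4.59, SE 0.53, edgeR adjusted p = 7.8e-05). Col8a2 (chr4:126286793-126314330, plus strand), a short-chain collagen of the corneal basement layer, was at 1.00, 0.72, 0.49, 0.64, 0.63 and 0.23 CPM in FS and at 5.56, 17.7 and 7.48 CPM in AF (log2 fold change -4.08, SE 0.43, edgeR adjusted p = 1.8e-05). In both, all FS samples stood apart from all AF samples. Col16a1 (chr4:130047840-130099283, plus strand), another fibril-associated chain, was at 7.51, 5.75, 2.35, 4.01, 3.65 and 3.77 CPM in FS, 10.9, 10.6 and 13.5 CPM in AF and 9.47, 5.73 and 5.75 CPM in AFX (log2 fold change -1.38, SE 0.30, edgeR adjusted p = 0.00446), again without overlap between FS and AF. Col6a3, a chain of the beaded filaments of type VI, was lower by -5.02 (edgeR adjusted p = 6.9e-05), from 6.90 CPM in AF to 0.208 CPM in FS. Col6a1, Col19a1, Col25a1 and Col26a1 were lower too, with means of at most 6.76 CPM in AF. Col6a1 was at 3.95, 12.6 and 3.74 CPM in AF, and it lost its call in 4 of 9 fits without a sample, with a log2 fold change of -0.49 without AF passage 15 (edgeR adjusted p = 0.389). Col25a1 lost its call in 2 of 9 such fits (adjusted p up to 0.0649). With FS line 1 alone against AF, Col5a3, Col6a1, Col16a1, Col25a1 and Col27a1 were not called (edgeR adjusted p = 0.153, 0.139, 0.0564, 0.124 and 0.148).

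AFX cells, E14 like AF cells but kept in another medium, carried less RNA of the type I, III and XI chains Col1a1, Col1a2, Col3a1 and Col11a1 and of Col4a1, Col4a2 and Col7a1 than AF cells. Of 33 chains tested, 12 were called and each of these was lower in AFX, where 8.73% of all genes tested were called and 4.42% were lower. Among the 12, Col6a3, Col19a1 and Col25a1 passed the filter on low counts only through AF, so a call of higher in AFX was not possible for them. This fit held both FS lines as 1 group. With the lines as separate groups, 15 chains were called, and 1859 genes in all against 1401. The median log2 fold change was -0.72 over the collagens and 0.01 over all genes. The comparison shares its AF samples with FS against AF, so the values of each stand side by side without a test of their likeness. Of the classes, 5 of 11 fibrillar, 3 of 6 basement membrane and 4 of 16 other chains were lower.

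Col3a1 was at 5.88, 0.50 and 6.83 CPM in AFX passages 14, 15 and 16, and Col1a2 at 12.3, 5.73 and 14.3 CPM, with passage 15 lowest for both. Col1a1 was at 18.8, 11.1 and 6.50 CPM. None of these samples reached an AF sample. The log2 fold changes against AF were -4.10 for Col3a1 (SE 0.66, edgeR adjusted p = 0.00406), -2.40 for Col1a2 (SE 0.34, edgeR adjusted p = 0.00113) and -2.93 for Col1a1 (SE 0.59, edgeR adjusted p = 0.012), and the last call was lost without AFX passage 15 (adjusted p = 0.0566). Col11a1 had no count in any AFX sample and was, against the floor of 3 counts per library, at least 58.2-fold lower than in AF (edgeR adjusted p = 0.00778). Col12a1 was at 1.76, 0.37 and 2 CPM, lower by -4.09 (SE 0.68, edgeR adjusted p = 0.00301).

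Col4a1 at 73.4, 70.3 and 61.8 CPM, Col4a2 at 24.3, 24.1 and 25.5 CPM and Col7a1 at 16.6, 30.9 and 32.3 CPM in AFX all lay below the AF samples. Their log2 fold changes were -1.11 (SE 0.30, edgeR adjusted p = 0.0368), -1.54 (SE 0.34, edgeR adjusted p = 0.0131) and -1.40 (SE 0.35, edgeR adjusted p = 0.0254). Col5a1 at 59.5, 78.5 and 71.9 CPM was lower by -0.75 (SE 0.21, edgeR adjusted p = 0.0395). Leaving out 1 sample ended the call of Col4a1 in 5 of 6 fits (adjusted p up to 0.146), of Col5a1 in 5 of 6 (up to 0.13), of Col7a1 in 3 of 6 (up to 0.085) and of Col4a2 in 2 of 6 (up to 0.0557). The count of chains called ran from 6, without AFX passage 15, to 12 over these fits.

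Several chains did not pass the test between AFX and AF, among them Col18a1 at 205, 253 and 198 CPM in AFX (log2 fold change 0.23, SE 0.22, edgeR adjusted p = 0.623). Col2a1 (ENSMUSG00000022483, chr15:97975602-98004695, minus strand), the main fibril chain of cartilage, was at 51.1, 95.2 and 319 CPM in AFX passages 14, 15 and 16 and at 85.9, 106 and 64.7 CPM in AF (log2 fold change 0.87, SE 1.04, edgeR adjusted p = 0.712). AFX passage 16 stood alone, and without it the value was -0.22. The summed parietal endoderm genes were at 17.6, 22.3 and 33.2 CPM in AFX passages 14, 15 and 16. Of this list Sox17 was at 0.47, 0 and 5 CPM, Gata6 at 0.27, 0.75 and 6.25 CPM and Gata4 at 0.20, 0.25 and 2 CPM, while Dab2 was at 11.3, 11.5 and 11.5 CPM and Snai1 at 3.18, 3.99 and 1.5 CPM. Their part in the level of Col2a1 was not tested.

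Between FS and AFX, 4 collagens were called, each lower in FS, and 8.70% of all genes tested were called, 4.92% lower. These were Col8a2 (log2 fold change -3.23, SE 0.43, edgeR adjusted p = 0.000277), Col3a1 (-3.02, SE 0.68, edgeR adjusted p = 0.0176), Col1a2 (-1.10, SE 0.30, edgeR adjusted p = 0.0322) and Col5a1 (-0.82, SE 0.18, edgeR adjusted p = 0.0103). Col8a2 was at 3.31, 6.11 and 7.5 CPM in AFX, above every FS sample, as was Col5a1, whereas Col3a1 and Col1a2 overlapped with FS at AFX passage 15. The median log2 fold change was -0.41 over the collagens and 0.00 over all genes. The call of Col1a2 was lost in 7 of 9 fits without a sample (adjusted p up to 0.187), of Col3a1 without AFX passage 14 or 16 (0.0751 and 0.0938) and of Col5a1 without AFX passage 15 (0.0658), and the count of chains called was 2 without AFX passage 16.

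**Figure D3:**
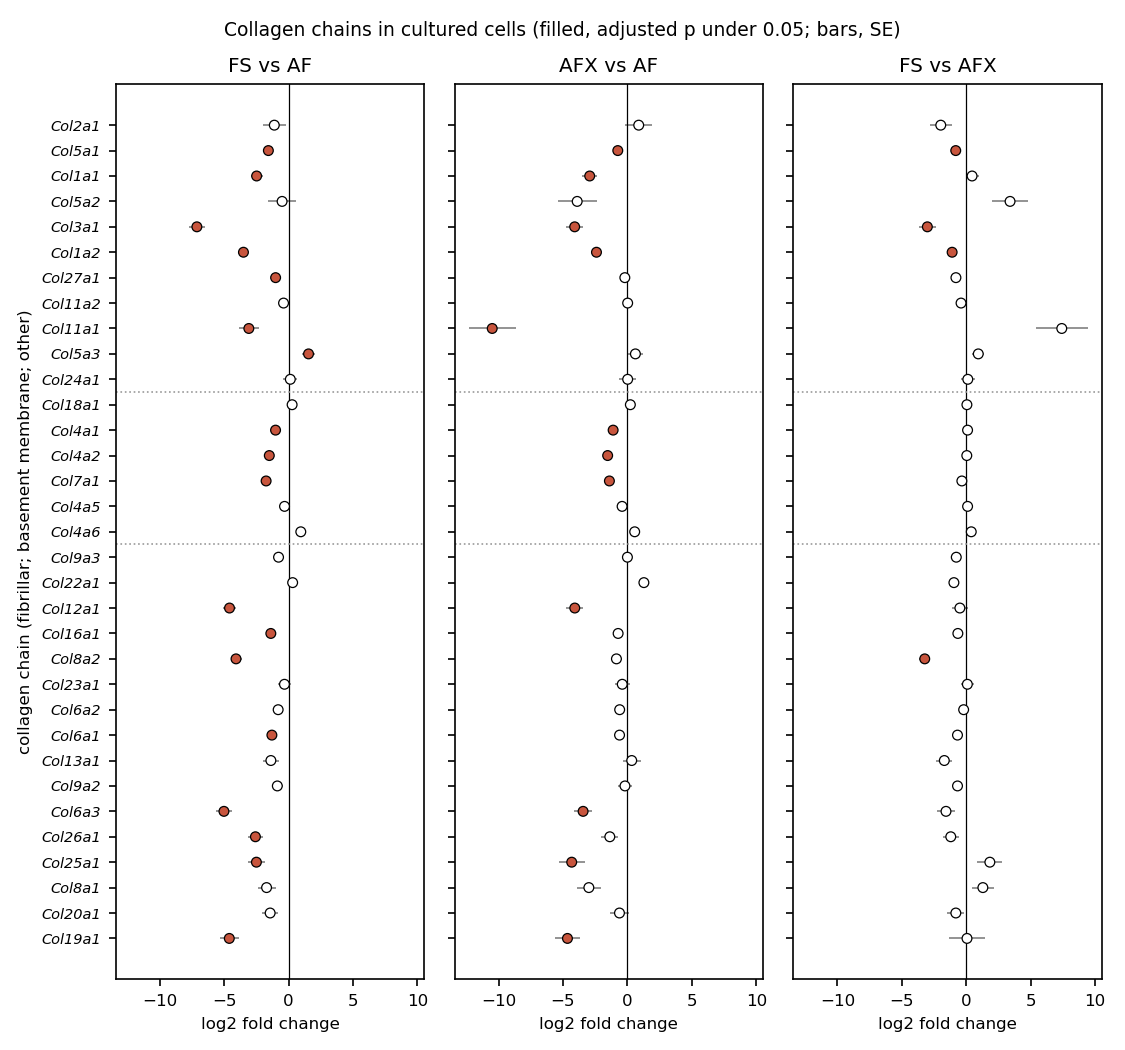
Log2 fold change (x axis, with its SE as a bar) of the 33 tested collagen chains (rows) in FS vs AF, AFX vs AF and FS vs AFX, with filled points for chains past the threshold and dotted lines between fibrillar, basement membrane and other chains. Filled points lie left of 0 for 17 chains in FS vs AF, 12 in AFX vs AF and 4 in FS vs AFX, and the fitted values of Col11a1 against the AFX samples without a count depend on the fit and are no measured fold.

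**Figure D4:**
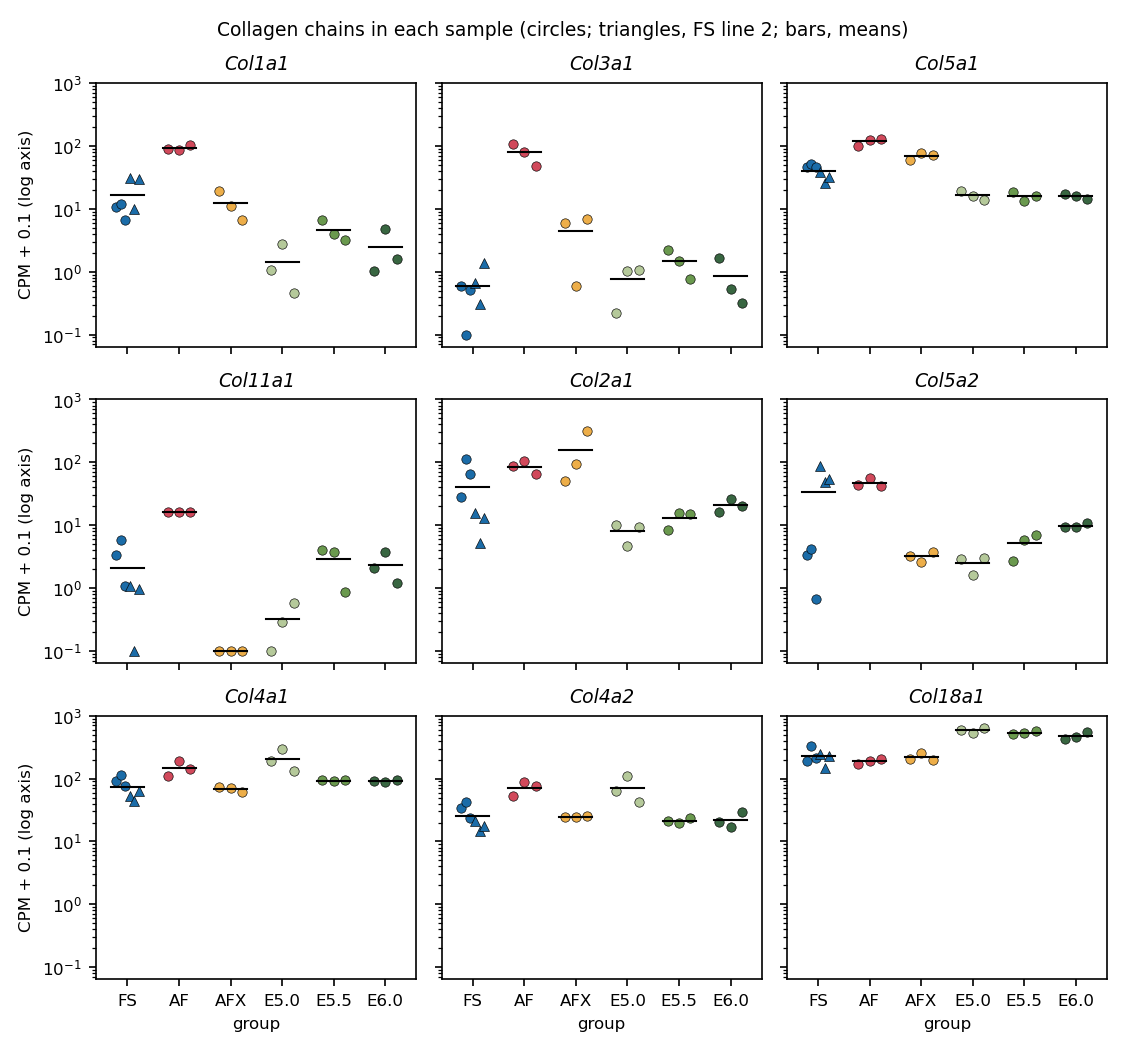
CPM plus 0.1 on a log axis of 9 collagen chains in each sample by group, with triangles for FS line 2, circles for all other samples and horizontal bars for group means. Col1a1, Col3a1 and Col11a1 are highest in the 3 AF samples, Col5a2 splits the FS lines, and Col18a1 is higher in all 9 epiblasts, from 422 CPM, than in all cultured samples, up to 332 CPM.

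Markers of several other cell types were lower in FS than in AF, beside the 19.5% of all genes that were called and the 10.6% that were lower. Of 11 fibroblast genes other than collagens, 7 of the 10 tested were lower, among them Acta2, Postn, Dcn and Prrx1. Their summed level was 131 to 239 CPM in AF, 63.3 to 81.6 CPM in AFX and 35.9 to 85.1 CPM in FS. Within this list AF levels were widely spread, from Tagln at 52.3 to 114 CPM, Acta2 at 17.01 to 60.2 CPM and Fbn1 at 23.2 to 28.9 CPM down to Dcn at 1.35 to 6.55 CPM and Lum at 0.28 to 1.73 CPM. Lum was at 0 in all FS samples. Of 8 parietal endoderm genes other than collagens, 5 of 7 tested were lower in FS, with summed levels of 70.3 to 101 CPM in AF, 17.6 to 33.2 CPM in AFX and 9.54 to 15.3 CPM in FS. Sox17 was at 24.2 to 43.3 CPM in AF and at most 0.60 CPM in FS.

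Of the extraembryonic ectoderm genes, 5 of 6 tested were lower in FS than in AF (Eomes, Tfap2c, Bmp4, Gata3 and Esrrb), with summed levels of 89.5 to 172 CPM in AF, 44.4 to 93.1 CPM in AFX and 34.9 to 57.1 CPM in FS. Eomes held most of this sum in AF, at 67.1, 54.5 and 134.6 CPM in passages 14, 15 and 16. Cdx2 was at 0.36 to 2.72 CPM in AF and Elf5 at 0. Of the mesoderm genes 2 of 5 tested were lower (Mixl1 and Kdr), with sums of 17.8 to 155 CPM in AF and 0.833 to 52.2 CPM in FS, and of the visceral endoderm genes 2 of 3 (Foxa1 and Spink1), with sums of 18.9 to 24.6 CPM in AF and 2.40 to 5.51 CPM in FS. Of the 8 epiblast genes, 4 were higher in FS. Between AFX and AF, where 8.73% of all genes were called and 4.42% were lower, 6 of 10 fibroblast genes, 4 of 7 parietal endoderm genes, 3 of 6 extraembryonic ectoderm genes, 1 of 5 mesoderm genes and 1 of 3 visceral endoderm genes were lower in AFX, and the fibroblast gene Thy1 and 2 of 8 epiblast genes were higher. Between FS and AFX, where 8.70% of all genes were called and 4.92% were lower, 2 of 10 fibroblast genes (Acta2 and Prrx1), 2 of 3 visceral endoderm genes (Foxa1 and Spink1), 1 of 7 parietal endoderm genes (Gata6) and 1 of 6 extraembryonic ectoderm genes (Esrrb) were lower in FS, and 1 of 8 epiblast genes (Epcam) was higher. The part of these marker lists in the collagen results was not tested, and in bulk samples fewer cells of a type and less RNA per cell cannot be told apart.

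The FS lines differed most in 1 chain. Col5a2 (ENSMUSG00000026042, chr1:45374321-45503282, minus strand), the partner of Col5a1 in type V molecules, was at 3.21, 4.07 and 0.57 CPM in line 1 passages 10, 11 and 18 and at 88.4, 48.2 and 53.5 CPM in line 2 passages 12, 13 and 16. No line 1 sample came near a line 2 sample. Its log2 fold change of 4.66 (SE 0.44, edgeR adjusted p = 4.8e-05) was 1 of 4 collagen calls in 33 chains tested, where 3.85% of all genes tested were called, 2.65% higher and 1.20% lower in line 2. AF cells were at 43.3, 56.3 and 41.8 CPM, beside line 2, and AFX cells at 3.11, 2.49 and 3.67 CPM, beside line 1. With both lines in 1 group, Col5a2 passed the test in neither FS against AF (log2 fold change -0.50, SE 1.09, edgeR adjusted p = 0.798) nor FS against AFX (3.40, SE 1.42, edgeR adjusted p = 0.193). AFX and AF did not overlap for Col5a2, and their difference did not pass the test either (log2 fold change -3.90, SE 1.53, edgeR adjusted p = 0.169). That fit also held both FS lines as 1 group, so their split entered the spread used for AFX against AF. The missing call is therefore no measure of how far apart AFX and AF were.

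The split was not shared by the chains nearest to Col5a2 in the genome or in the molecule. Col3a1, which lies beside Col5a2 on chromosome 1 in the opposite orientation, was at or under 1.26 CPM in both lines. Col5a1 was lower in line 2, by -0.58 (SE 0.15, edgeR adjusted p = 0.0497). Col4a1 at 92.8, 112 and 77.1 against 52.4, 44.2 and 63.9 CPM and Col4a2 at 34.1, 42.7 and 23.5 against 20.9, 14.4 and 17.7 CPM were lower in line 2 by -0.82 (SE 0.19, edgeR adjusted p = 0.0282) and -0.92 (SE 0.22, edgeR adjusted p = 0.0285). These 3 calls were less firm than that of Col5a2, since 5 of 6 fits without a sample lost Col5a1 (adjusted p up to 0.202) and 4 of 6 each lost Col4a1 (up to 0.158) and Col4a2 (up to 0.162), and 1 chain was called without line 1 passage 10 or 11 and 2 without line 2 passage 13. Col2a1 was at 27.8, 112 and 64.3 CPM in line 1 and 15.6, 5.10 and 13.1 CPM in line 2, a gap without overlap that did not pass the test (log2 fold change -2.58, SE 0.76, edgeR adjusted p = 0.106). The matrix-binding glycoprotein Sparc, which chaperones type IV collagen, was higher in line 2 (160 against 75.4 CPM, log2 fold change 1.08, SE 0.26, edgeR adjusted p = 0.0363). Of the marker genes of other cell types, the fibroblast gene Postn was lower in line 2 (edgeR adjusted p = 0.0469), 1 of 10 tested in its list, and its part in the collagen results was not tested.

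Between E5.0 and E6.0 epiblasts the type IV chains Col4a1 and Col4a2 fell and several fibrillar chains rose. Of 44 chains, 25 could be tested among 14228 genes in epiblasts. From E5.0 to E6.0, 5 were higher and 6 lower, where 21.8% of all genes tested were called, 10.2% higher and 11.6% lower, and the median log2 fold change was 0.62 over the collagens and -0.02 over all genes. Among the called chains, Col4a5 passed the filter on low counts only through E6.0 and Col23a1 only through E5.0, so that their direction was set by the filter. From E5.0 to E5.5, 3 chains were called (1 higher and 2 lower) against 6.82% of all genes (3.07% higher and 3.75% lower), and from E5.5 to E6.0, 1 chain was called against 4.43% of all genes, and it was lower, as were 2.54% of all genes.

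Col4a1 was at 193, 295 and 130 CPM in E5.0 embryos 1, 2 and 4, at 95.4, 90.3 and 93.4 CPM at E5.5 and at 90.9, 87.7 and 96.3 CPM at E6.0. Col4a2 was at 63.9, 109 and 42.7 CPM, then 21.1, 19.7 and 23.3 CPM, then 19.96, 17.1 and 29.1 CPM. For both, all E5.0 embryos were above all later ones, embryo 2 was highest and embryo 4 lowest among them, and the 2 later stages overlapped. From E5.0 to E5.5 Col4a1 fell by 1.20 on the log2 scale (SE 0.25, edgeR adjusted p = 0.0209) and Col4a2 fell by 1.80 (SE 0.32, edgeR adjusted p = 0.00768). From E5.5 to E6.0 the log2 fold changes were -0.04 (SE 0.25, edgeR adjusted p = 0.954) and 0.02 (SE 0.32, edgeR adjusted p = 0.983). The call of Col4a1 from E5.0 to E5.5 was lost without any 1 of the 3 E5.5 embryos (adjusted p up to 0.0865), and 1 chain in all was called between these stages without E5.5 embryo 2. Both chains were also lower at E6.0 than at E5.0 (edgeR adjusted p = 0.00578 and 0.00199).

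Visceral endoderm genes fell over the same interval. Their summed level was 230 to 748 CPM at E5.0, 24.2 to 59.6 CPM at E5.5 and 7.20 to 11.8 CPM at E6.0, and 6 of the 8 tested were lower at E5.5 than at E5.0, as were 6 of 8 at E6.0, beside 3.75% and 11.6% of all genes. Cubn, an endocytic receptor of that tissue, made up most of this sum at E5.0, at 345, 599 and 147 CPM in embryos 1, 2 and 4. Cubn and Amn were highest in embryo 2, whereas Apob, Apoa1, Ttr and Afp were highest in embryo 1 and Hnf4a was at 11.4 to 12.02 CPM in all 3. Summed parietal endoderm genes were at 96.9 to 138 CPM at E5.0, 28.5 to 32.9 CPM at E5.5 and 30.4 to 36.4 CPM at E6.0. Dab2 held most of this sum at E5.0, at 104, 113 and 66.2 CPM in embryos 1, 2 and 4. The part of these markers in the fall of Col4a1 and Col4a2 was not tested.

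Col18a1 was at 582, 526 and 649 CPM at E5.0, 510, 530 and 582 CPM at E5.5 and 422, 463 and 551 CPM at E6.0, and the stages overlapped. It fell by 0.36 on the log2 scale from E5.0 to E6.0 (SE 0.10, edgeR adjusted p = 0.0238), a call lost in 4 of 6 fits without a sample (adjusted p up to 0.127). The minor type IV chain Col4a5, X-linked and paired with Col4a6, had no count at E5.0, 1.01, 1.94 and 0.28 CPM at E5.5 and 1.71, 2.72 and 1.95 CPM at E6.0. Against the floor of 3 counts per library it was at least 2.52-fold higher at E5.5 (edgeR adjusted p = 0.0399) and at least 4.97-fold higher at E6.0 (edgeR adjusted p = 0.00655), and 5 of 6 fits without a sample lost the former call (adjusted p up to 0.131).

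Fibrillar chains that were higher at E6.0 than at E5.0 were Col2a1, Col5a2, Col11a1 and Col11a2. Col2a1 was at 10.1, 4.49 and 9.34 CPM at E5.0, 8.39, 15.2 and 14.8 CPM at E5.5 and 15.9, 26.3 and 20.3 CPM at E6.0. Col5a2 was at 2.82, 1.5 and 2.95, then 2.57, 5.72 and 6.84, then 9.32, 9.13 and 10.7 CPM. For both chains the E5.5 embryos overlapped with E5.0 and the E6.0 embryos were above all others. The log2 fold changes were 1.31 for Col2a1 (SE 0.34, edgeR adjusted p = 0.0129) and 1.91 for Col5a2 (SE 0.43, edgeR adjusted p = 0.00637), and the call of Col2a1 was lost without E6.0 embryo 2 (adjusted p = 0.0715). That embryo was the highest at E6.0 in summed mesoderm genes, at 34.1 CPM against 6.30 and 3.68 CPM in embryos 1 and 3, and their part in the result was not tested. Col11a1 was at 0, 0.19 and 0.47 CPM at E5.0, 3.92, 3.66 and 0.75 CPM at E5.5 and 1.97, 3.69 and 1.08 CPM at E6.0. Col11a1 and Col11a2, the latter at 0.950 ± 0.347 CPM (SD, n = 3) at E5.0 and 3.94 ± 2.66 CPM (n = 3) at E6.0, were called at edgeR adjusted p = 0.0409 and 0.0386, and 4 of 6 fits without a sample lost each (adjusted p up to 0.172 and 0.233).

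Col27a1 moved the other way. It was at 23.6, 19.6 and 6.74 CPM at E5.0, 16.7, 22.1 and 12 CPM at E5.5 and 3.94, 3.34 and 5.20 CPM at E6.0, so that all E6.0 embryos were below all earlier ones. It fell by 2.05 from E5.5 to E6.0 (SE 0.43, edgeR adjusted p = 0.0142) and fell by 2.07 from E5.0 to E6.0 (SE 0.43, edgeR adjusted p = 0.00363). The former call was lost without E5.5 embryo 2 or E6.0 embryo 1 or 2 (adjusted p up to 0.0853). The membrane-spanning chains Col17a1 of hemidesmosomes and Col23a1 were lower at E6.0 than at E5.0 as well, at 0.408 against 2.82 CPM (edgeR adjusted p = 0.0195) and 0.424 against 8.32 CPM (edgeR adjusted p = 0.0322), with 4 and 6 of 6 fits without a sample losing the call (adjusted p up to 0.0783 and 0.107). Leaving out 1 sample gave 5 to 10 chains called from E5.0 to E6.0, with 5 without E6.0 embryo 2 and 6 without E6.0 embryo 1. Col5a1, at 19.4, 16.1 and 13.9 CPM, 18.7, 13.3 and 16.03 CPM and 17.3, 16.1 and 14.2 CPM at the 3 stages, overlapped throughout (log2 fold change -0.12 from E5.0 to E6.0, SE 0.24, edgeR adjusted p = 0.766).

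Other chains that were called among cultured cells were low or overlapping in epiblasts. Col1a1 was at 0.98, 2.62 and 0.35 CPM at E5.0, 6.60, 3.89 and 3.09 CPM at E5.5 and 0.92, 4.74 and 1.52 CPM at E6.0, and its E5.5 embryos were above its E5.0 embryos without passing the test (log2 fold change 1.78, SE 0.78, edgeR adjusted p = 0.195). Col1a2 was at 0, 1.12 and 2.25, then 2.01, 4.81 and 1.22, then 2.76, 4.74 and 5.74 CPM, and Col3a1 at 0.12, 0.93 and 0.95, then 2.13, 1.37 and 0.66, then 1.58, 0.44 and 0.22 CPM. Col7a1 was the highest of these, at 21.1, 19.07 and 4.14, then 13.2, 9.72 and 8.06, then 13.1, 9.04 and 10.07 CPM. Col16a1 was at 1.47, 0.93 and 0.47, then 0.22, 0.69 and 1.5, then 1.31, 1.93 and 1.41 CPM. Col8a2, at 0.12, 0.19 and 0.59, then 1.57, 0.11 and 0.19, then 0, 0.70 and 0 CPM, and Col12a1, at 0.12, 0.19 and 2.01, then 0.34, 1.49 and 0, then 0.53, 0.09 and 0 CPM, were left out of the test by the filter on low counts.

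Cultured cells were also set against epiblasts, FS against E5.5 and AF and AFX against E6.0, in 1 fit of 21 samples in which 35 chains were tested. Cell number, collection and medium differ between cultures and epiblasts and cannot be told apart here. In FS against E5.5, 11 chains were higher and 4 lower, 42.9% of those tested, which is near the 43.8% of all genes tested that were called (23.0% higher and 20.8% lower). In AF against E6.0, 21 were higher and 1 lower, against 35.2% of all genes tested (18.1% higher and 17.1% lower), and the median log2 fold change was 2.29 over the collagens and 0.08 over all genes. Among the 21, Col19a1 passed the filter on low counts only through AF, so a call of lower in AF was not possible for it. In AFX against E6.0, 14 were higher and 3 lower, against 32.8% of all genes (17.1% higher and 15.8% lower), with a median of 1.62 over the collagens, 1.30 with undetected chains set to their bounds, and 0.09 over all genes, and the number of chains called in this comparison was 9 without E6.0 embryo 3 and 11 without E6.0 embryo 2.

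Some marker genes of other cell types were called in these comparisons as well. In AF against E6.0, where 18.1% of all genes tested were higher and 17.1% lower, 8 of 10 fibroblast genes, 5 of 8 parietal endoderm genes, 4 of 7 extraembryonic ectoderm genes, 1 of 6 mesoderm genes and 2 of 9 visceral endoderm genes were higher, 1 parietal endoderm gene was lower, and 7 of 8 epiblast genes were lower. The mesoderm and visceral endoderm counts were near the share of all genes. Summed fibroblast genes were at 28.3 to 31.5 CPM at E6.0 and 17.9 to 25.8 CPM at E5.5, below all cultured samples. In AFX against E6.0, where 17.1% of all genes tested were higher and 15.8% lower, 4 of 10 fibroblast genes, 1 of 8 parietal endoderm genes and 1 of 7 extraembryonic ectoderm genes were higher, and 1 fibroblast gene, 1 parietal endoderm gene, 3 of 9 visceral endoderm genes and 6 of 8 epiblast genes were lower. The parietal endoderm and extraembryonic ectoderm counts were near the shares of all genes or below them. In FS against E5.5, where 23.0% of all genes tested were higher and 20.8% lower, 5 of 10 fibroblast genes were higher and 1 lower, 7 of 9 visceral endoderm genes were lower and 1 higher, 3 of 8 parietal endoderm genes and 2 of 7 extraembryonic ectoderm genes were lower, and 5 of 8 epiblast genes were lower and 1 higher. The part of these genes in the collagen results was not tested.

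Col18a1 was the only chain lower in all 3 of these comparisons. Its log2 fold change was -1.26 in FS against E5.5 (SE 0.15, edgeR adjusted p = 9.77e-07), -1.35 in AF against E6.0 (SE 0.18, edgeR adjusted p = 1.04e-05) and -1.12 in AFX against E6.0 (SE 0.18, edgeR adjusted p = 9.35e-05). Col5a1 was higher in all 3, by 1.31 (SE 0.19, edgeR adjusted p = 8.85e-06), 2.90 (SE 0.22, edgeR adjusted p = 1.7e-09) and 2.15 (SE 0.21, edgeR adjusted p = 1.25e-07), and no cultured sample overlapped with an epiblast for either chain. Col1a1 was higher by 1.88, 5.22 and 2.29 (edgeR adjusted p = 0.0164, 4.13e-05 and 0.0169). Its call in FS against E5.5 was lost in 2 of 9 fits without a sample (adjusted p up to 0.0786) and with FS line 1 alone, and that in AFX against E6.0 in 3 of 6 (adjusted p up to 0.0858). Col3a1 was higher in AF than at E6.0 by 6.80 (SE 0.87, edgeR adjusted p = 1.36e-05) and in AFX by 2.69 (SE 0.84, edgeR adjusted p = 0.0208), the latter with overlap and with the call lost in 4 of 6 fits without a sample (adjusted p up to 0.0929) and without the filter on low counts. Col4a1 passed the test in none of the 3, with log2 fold changes of -0.34 in FS against E5.5, 0.70 in AF against E6.0 and -0.41 in AFX against E6.0 (edgeR adjusted p = 0.288, 0.0752 and 0.313), and Col4a2 was called in AF against E6.0 alone (1.71, SE 0.36, edgeR adjusted p = 0.00107).

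The ratio of the partner chains Col4a1 and Col4a2 per kilobase of exon varied between groups. It was 2.64 ± 0.381 (SD, n = 6) in FS, 1.83 ± 0.12 (n = 3) in AF, 2.47 ± 0.284 in AFX, 2.59 ± 0.171 at E5.0, 3.87 ± 0.282 at E5.5 and 3.84 ± 0.824 at E6.0. All 3 AF samples, at 1.71 to 1.95, lay below all other samples, the lowest of which was AFX at 2.15. All E5.5 samples, from 3.55, were above all E5.0 samples, up to 2.70. These ratios were not tested.

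Of the enzymes, chaperones and receptors that collagens depend on, some members of each list were called. In FS against AF, where 10.6% of all genes tested were lower and 8.86% higher, 5 of 14 tested genes of hydroxylation and glycosylation were lower, 2 of 7 of folding and export, 3 of 8 of procollagen processing, 4 of 7 of cross-linking, 3 of 8 receptors and 3 of 8 of breakdown, with 1 breakdown gene higher. The medians of these lists were -0.24, -0.40, -0.81, -1.29, -0.22 and -0.62 on the log2 scale. In AFX against AF, where 8.73% of all genes tested were called and 4.42% were lower, 1 of 14 hydroxylation genes, 4 of 7 folding genes, 1 of 8 processing genes, 2 of 7 cross-linking genes and 1 of 8 receptor genes were lower, 1 of 8 receptor genes was higher, and the median over the 8 breakdown genes tested, without a call in edgeR's test and with 4 of them at an unadjusted p under 0.05, was 0.14.

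Serpinh1, the collagen-specific chaperone of the endoplasmic reticulum, was lower in FS than in AF (163 against 269 CPM, log2 fold change -0.72, SE 0.12, edgeR adjusted p = 0.000689). Colgalt1, which adds galactose to hydroxylysine, was lower by -0.42 (SE 0.11, edgeR adjusted p = 0.0167), and Pcolce, an enhancer of procollagen trimming, by -1.59 (SE 0.33, edgeR adjusted p = 0.00305). The cross-linking transglutaminase Tgm2 was lower by -2.10 (SE 0.42, edgeR adjusted p = 0.00269), the integrin subunit Itgb1, part of the main collagen receptors, by -0.77 (SE 0.19, edgeR adjusted p = 0.0128) and the membrane collagenase Mmp14 by -1.92 (SE 0.42, edgeR adjusted p = 0.00746). The protease Mmp15 was higher by 0.47 (SE 0.15, edgeR adjusted p = 0.0357). The receptor kinase Ddr1, which binds collagen directly, was higher in AFX than in AF (100 against 61.7 CPM, log2 fold change 0.71, SE 0.12, edgeR adjusted p = 0.0031).

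In epiblasts, 5 of 13 tested hydroxylation and glycosylation genes were lower at E6.0 than at E5.0, where 11.6% of all genes tested were lower and 10.2% higher. Of folding genes 1 of 6 was higher and 2 were lower, of processing genes 1 of 5 was higher, of cross-linking genes 1 of 5 was higher, of receptor genes 1 of 5 was higher, and of breakdown genes 2 of 7 were higher and 1 was lower. The lysyl hydroxylase Plod2 fell by 1.49 (SE 0.20, edgeR adjusted p = 0.00017) and the prolyl hydroxylase subunit P4ha1 fell by 1.495 (SE 0.19, edgeR adjusted p = 8.69e-05). Sparc was lower by -1.004 (SE 0.22, edgeR adjusted p = 0.00504). Summed visceral endoderm genes fell over the same interval, from 230 to 748 CPM at E5.0 to 7.20 to 11.8 CPM at E6.0, and their part in these results was not tested. Pxdn, the peroxidase that cross-links type IV collagen, was higher (141 against 86.1 CPM, log2 fold change 0.64, SE 0.12, edgeR adjusted p = 0.0017), as was the endocytic collagen receptor Mrc2 (0.75, SE 0.22, edgeR adjusted p = 0.0239).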

How the data were processed

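RNA was sequenced from 12 cultured samples and 9 single epiblasts, with total RNA isolated by a PicoPure kit, per the labels' protocols. The authors deposited 1 table of raw counts per gene (33861 genes, 21 samples), and the submitters' processing notes name Trim Galore, TopHat2 2.1.0, featureCounts 1.5.0 and the mm10 build, with no role, order, annotation or strand setting given in the sources used here. Without strand, reads of overlapping genes on opposite strands cannot be told apart, and annotated exons of other genes overlapped at most 6.07% of the exon length of a collagen chain. Coordinates, gene types and exon lengths are from GENCODE M21 (GRCm38, the same assembly as mm10).

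Genes were kept by filterByExpr, scaled by TMM and tested with the robust quasi-likelihood F-test (two-sided) of edgeR 4.0.16 in R 4.3.3, with Benjamini-Hochberg adjustment over all genes tested. Comparisons among cultured cells used 12 samples, those among epiblasts 9, and those across both 21. CPM are TMM-scaled over 21 samples. SE is the size of the log2 fold change divided by the root of F and so includes the spread between samples, while floors cover counting error only. The filter on low counts left out 11 collagens in cultured cells, 19 in epiblasts and 9 in the joint fit. Groups come from the sample titles. The steps were tested on simulated data, and no pair of libraries of the same group agreed within sampling noise. Values in every sample are given for chains past the threshold within cultured cells or within epiblasts and a mean CPM of 10 or more in the group with the larger mean, and for the 3 highest chains of each group per kilobase. Up to 4 genes of each machinery list could be named, those with a call and the highest mean CPM. Members, lists, comparisons and the naming rule were chosen with earlier results of these data known. Alternatives were DESeq2 1.42.0 (size factors, or its Wald test), no filter, exclusion of ribosomal loci, the groups alone, each FS line alone, a replicate block and each sample left out. For AFX vs AF, a fit with the FS lines as separate groups was also run.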

Additional observations from a re-analysis of the deposited data

Results flagged for a closer look

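In the 6 FS samples, 15 chains were checked for a sample far from the others, by the gap to the nearest sample over the range of the group. Col1a2 in FS line 1 passage 11, at 9.096 CPM, met the 95% limit with a gap over range of 0.685, while the other FS samples were at 3.57 to 5.31 CPM. By chance about 1 in 20 groups is marked in this way.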

How the results depend on the processing

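Of 107 pairs of a chain and a comparison that were called, 60 kept the call under every alternative run, 46 lost it when at least 1 sample was left out, 27 lost it under at least 1 other alternative, and 0 changed sign. Left-out samples gave ranges of chains called of 15 to 19 in FS vs AF (18 with all samples), 2 to 5 in FS vs AFX (4), 6 to 12 in AFX vs AF (12), 1 to 4 in FS line 2 vs FS line 1 (4), 1 to 3 in E5.5 vs E5.0 (3), 0 to 1 in E6.0 vs E5.5 (1), 5 to 10 in E6.0 vs E5.0 (11), 12 to 15 in FS vs E5.5 (15), 19 to 20 in AF vs E6.0 (22) and 9 to 14 in AFX vs E6.0 (17). Without the filter on low counts, 2 chains were called in FS vs AFX, 10 in FS line 2 vs FS line 1 and 6 in E5.5 vs E5.0. The DESeq2 Wald test called 6 chains in E5.5 vs E5.0 and 2 in E6.0 vs E5.5, the fit of E5.0 and E5.5 alone called 1, and FS line 2 alone against AFX called 10. All other counts stayed within 1.5 times. The cause of these shifts was not tested. Among cultured cells, no filter on low counts ended the calls of Col11a1 in FS vs AF (adjusted p = 0.0679), Col1a2 and Col3a1 in FS vs AFX (0.0534 and 0.0587) and Col4a1 and Col7a1 in AFX vs AF (0.116 and 0.0796).

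Values that changed sign were all of chains without a call. In FS vs AFX these were Col1a1 at -0.34 and Col5a2 at -0.32 with FS line 1 alone, and Col18a1 at -0.094 with FS line 2 alone and at -0.0927 to 0.172 over left-out samples, below 0 without FS passage 11 and without AFX passage 16 (-0.02). The others were Col5a2 in FS vs AF at 0.42 and Col4a2 in FS vs E5.5 at -0.27 with FS line 2 alone, and Col2a1 in AFX vs AF at -0.22 (without AFX passage 16) to 1.28 over left-out samples.

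Same-numbered passages of AF and AFX correlated at -0.204, -0.152 and 0.297 and same-numbered epiblasts at -0.114 to 0.115. Differently numbered passages of AF and AFX correlated at -0.39 to 0.415. The check showed no pairing by number, and with 3 samples in each group it cannot exclude one. With the number as a replicate block, 11 chains were called in AFX vs AF, 3 in E5.5 vs E5.0, 1 in E6.0 vs E5.5 and 10 in E6.0 vs E5.0. The block ended the calls of Col4a1 in AFX vs AF (adjusted p = 0.07), Col4a5 in E5.5 vs E5.0 (0.127) and Col2a1, Col11a2 and Col17a1 in E6.0 vs E5.0 (0.0647, 0.0849 and 0.0683), in edgeR's test. Among all genes the block lowered the number called in E5.5 vs E5.0 from 971 to 421. Over the alternatives, the number of all genes called ran from 371 to 1659 in E5.5 vs E5.0, 238 to 1445 in E6.0 vs E5.5 (631 in the fit reported), 316 to 1298 in FS line 2 vs FS line 1 (618), down to 732 in AFX vs AF (1401), 820 in FS vs AFX (1397) and 1905 in E6.0 vs E5.0 (3100). The number of counts limits chains of about 1 CPM or less, where 3 counts are up to 0.561 CPM.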
